A study of Mus musculus with 6 samples.

Results

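The regions described here are the 100-kb windows nearest to the distal, telomere-side ends of the mouse autosomes. Non-overlapping windows were laid from position 1 of mm10, and those lying in the last 5 Mb of chromosomes 1 to 19 were taken, which gave 950 of 26350 windows on chromosomes 1 to 19 and X. The other 23689 windows of chromosomes 1 to 19 served for comparison. Of the 950 windows, 914 held at least 50 kb of sequenced bases, 15 held fewer and 21 lay wholly in assembly gaps. The windows together held 402394 reads over the 6 libraries, and every window with a sequenced base held at least 1 read.

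The reads come from BLISS, which joins adaptors to free DNA ends in fixed nuclei and copies the joined ends by in vitro transcription for sequencing. Neurons were sorted from forebrain of CK-p25 mice kept off doxycycline for 2 weeks, and all 6 libraries carry that genotype and treatment. In CK-p25 mice a transactivator under the Camk2a promoter, active in forebrain excitatory neurons, drives p25, a fragment that activates the kinase Cdk5, once doxycycline is withdrawn. The titles form 3 groups of 2 libraries, Con, Step1 and Step2. The labels leave unsaid what sets the groups apart, which cells Con holds, and whether replicates are separate animals, so every p-value below measures only the spread between libraries, which may be technical. Depth ran from 1480461 to 2403238 reads per library. The sorted identity could not be checked, since reads are DNA ends and not transcripts.

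Mouse autosomes are telocentric, so each has its centromere beside one telomere and a long arm that runs to the other. Chromosome ends are capped by TTAGGG repeats bound by shelterin, which keeps natural ends from being treated as breaks. The sequence next to the cap is often rich in duplicated genes and repeats, where short reads are hard to place.

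The assembly itself shows how far these ends can be read. Every autosome except chromosome 4 ended in an unbroken run of the telomere repeat, 41 to 535 bases long, followed by a gap of 100000 bases (150000 on chromosomes 4 and 6). The last 60 sequenced bases of chromosome 4 are given on the plus strand of mm10, since this is the end that lacks the repeat; no capitals are used.
Chromosome 4 end, chr4:156358057-156358116: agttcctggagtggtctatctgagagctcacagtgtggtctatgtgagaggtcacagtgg
At least 1 run of 3 TTAGGG units, searched on both strands, lay in 63 of 929 distal windows with sequence (6.78%) and in 297 of 23103 other windows (1.29%). A match is a description of the assembly and says nothing of the cap in these cells.

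The sites with the most reads in the distal windows are printed next, because single sites decided several of the values that follow. On chromosome 3 the reads began just before the start of Cth, which encodes the cysteine-making enzyme cystathionine gamma-lyase and lies on the minus strand. The sequence is on that strand, and the capitals mark the 3 neighbouring bases where most reads began.
Cth start, chr3:157925039-157925159, minus strand: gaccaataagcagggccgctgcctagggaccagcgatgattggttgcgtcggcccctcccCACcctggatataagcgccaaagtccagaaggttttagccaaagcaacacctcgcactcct
The other 2 sites lie on the plus strand of chromosomes 8 and 9. Capitals mark letters that both share, and reads began at the first capital or within the few bases before it.
Chromosome 8 site, chr8:128089247-128089297, plus strand: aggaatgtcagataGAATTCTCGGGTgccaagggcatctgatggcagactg
Chromosome 9 site, chr9:123926931-123926981, plus strand: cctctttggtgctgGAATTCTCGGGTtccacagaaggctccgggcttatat
The chromosome 9 site lies outside the naming rule and was picked after its values were seen.

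Summed over all distal windows, break-end density was slightly lower than over the rest of the chromosomes. Density, the number of 5′ read ends per sequenced Mb scaled to library size as CPM is, was 383 and 387 in the Con libraries, 382 and 383 in Step1, and 386 and 384 in Step2 over all distal windows. Over the other windows it was 411, 409, 417, 416, 413 and 412 in the same order. The distal windows were thus lower in each of the 6 libraries. Averaged over chromosomes, the log2 ratio of distal to other density was −0.090 and −0.071 (Con), −0.106 and −0.102 (Step1) and −0.086 and −0.088 (Step2). The mean of −0.090, a ratio of 0.939, differed from 0 by an exact sign-flip permutation test over the 6 libraries (two-sided p = 0.03125, the smallest that 6 libraries allow). All 6 libraries share the same assembly, and a fixed effect of its sequence would give them the same sign. The test therefore cannot tell such an effect from a difference in breaks.

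Most of that gap lay outside the chromosome ends. Across the genome 26 windows of 10 kb held over 20 times the median reads of such windows, none of them distal, and leaving them out brought the ratio to 0.974 (mean log2 −0.038, lowest −0.045 and highest −0.025, exact sign-flip permutation p = 0.03125). Counting 1 read per position and strand gave 0.973. The distal windows were richer in GC (43.8% against 41.9%), in gene bodies (46.9% against 41.1% of bases) and in gene starts (12.1 against 8.55 per Mb), and their median density was 387 against 399. With a GC curve fitted to the other windows and the piled-up windows left out, the ratio was 0.987 and all 6 libraries were still below 0. With single-copy bases in place of sequenced bases as the divisor, again without the piled-up windows, the gap was wider, with a ratio of 0.958 (mean log2 −0.062). Reads in repeated sequence were kept in this ratio.

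Both Step1 libraries lay below both Con and both Step2 libraries on this ratio, while Con and Step2 overlapped. The mean log2 ratio was −0.080 ± 0.014 in Con, −0.104 ± 0.0025 in Step1 and −0.087 ± 0.0019 in Step2 (SD, n = 2 each). Step1 minus Con was −0.024 (exact permutation p = 0.33), Step2 minus Con was −0.0068 (exact permutation p = 1.0) and Step2 minus Step1 was 0.017 (exact permutation p = 0.33). With 2 libraries against 2 the two-sided test cannot go below 0.33, so these p-values do not show that the groups act alike. The spread between the Con libraries was close to the size of the largest difference.

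Density was not level along the last 5 Mb. Distances here are from the chromosome end, with the terminal gap included, and density is per sequenced base. With piled-up windows left out, the other windows stood at 392 to 394 in the 6 libraries. The last 0.5 Mb stood at 362 on average (357 to 367), lower in all 6 libraries, and its sequence was 78.4% single-copy, meaning that a stretch of 48 bases sampled there occurred once in the assembly. From 0.5 to 2.5 Mb the means were 397, 399, 399 and 400 in steps of 0.5 Mb, at or above the other windows in most libraries, with 90.2% to 93.8% single-copy sequence. From 3 to 5 Mb the means were 380, 375, 367 and 371, each below the other windows in all 6 libraries. GC was 43.9% and 44.4% at 1.5 to 2.5 Mb, where the density was 399 and 400. It was 45.1% and 45.2% at 2.5 to 3.5 Mb, where the density was 387 and 380. At 4 to 5 Mb it was 44.4% and 43.9%, with a density of 367 and 371. The part of GC in this profile was not tested. The low stretch did not stop at 5 Mb: from 5 to 7 Mb the means were 363 to 376. From 7 to 8 Mb they were 380 and 387, each below the other windows in all 6 libraries. Dividing density by the single-copy share of each step turned the order at the end around. The last 0.5 Mb was then highest at 462, and the other steps lay between 399 and 440. All reads were kept, those in repeated sequence too, so this is not the density of single-copy sequence alone.

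**Figure D1:**
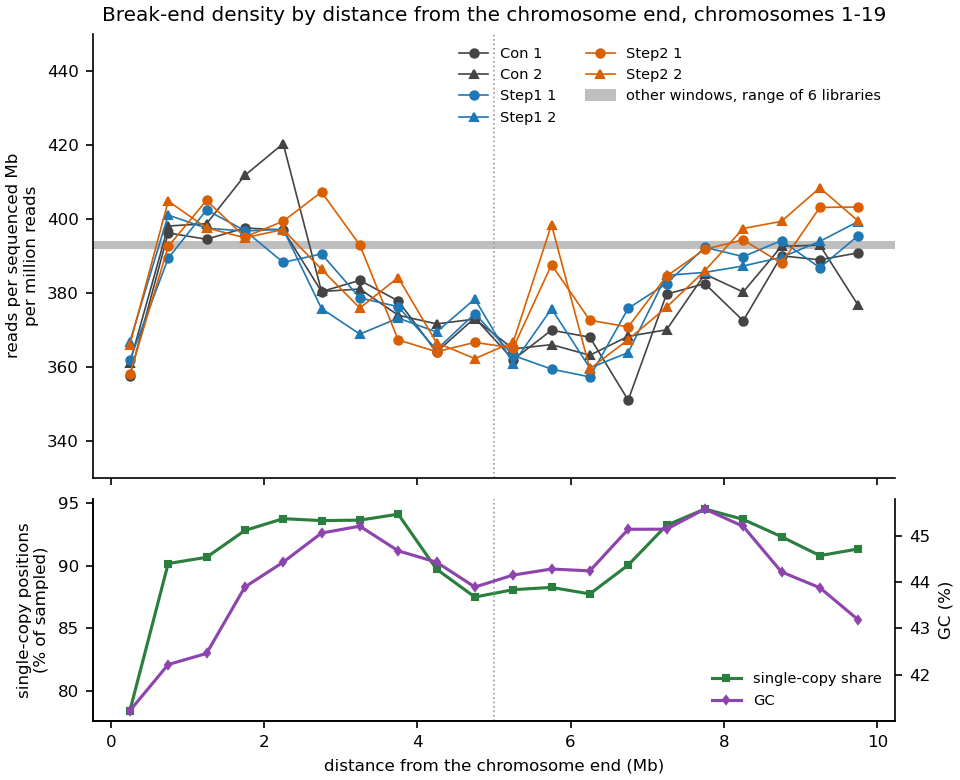
Upper panel: reads per sequenced Mb, scaled as CPM, in steps of 0.5 Mb from the chromosome end, 1 line per library (the axis does not start at 0); the grey band is the range of the other windows and the dotted line marks 5 Mb. Lower panel: single-copy share and GC of the same steps. All 6 libraries dip to 357 to 367 in the last 0.5 Mb, where the single-copy share falls to 78.4%.

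Chromosome ends differed more than groups did. The 3 lowest distal to other ratios belonged to chromosome 2 (0.592), chromosome 9 (0.819) and chromosome 11 (0.875), and all 6 libraries were below 0 on the log2 scale for each. The 3 highest were those of chromosome 3 (1.06), chromosome 17 (1.05) and chromosome 7 (1.01). Piled-up windows elsewhere on chromosome 2 set most of its value, which was 0.858 without them; chromosome 9 then stood at 0.935, chromosome 11 at 0.892 and chromosome 17 at 1.09. Without piled-up windows all 6 libraries were below 0 on 8 chromosomes, all above 0 on 2, and on both sides of 0 on 9. On chromosome 3 the second Con library stood apart at 0.27, against 0.0061 to 0.087 in the other 5, and the Cth site described below is on that chromosome.

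**Figure D2:**
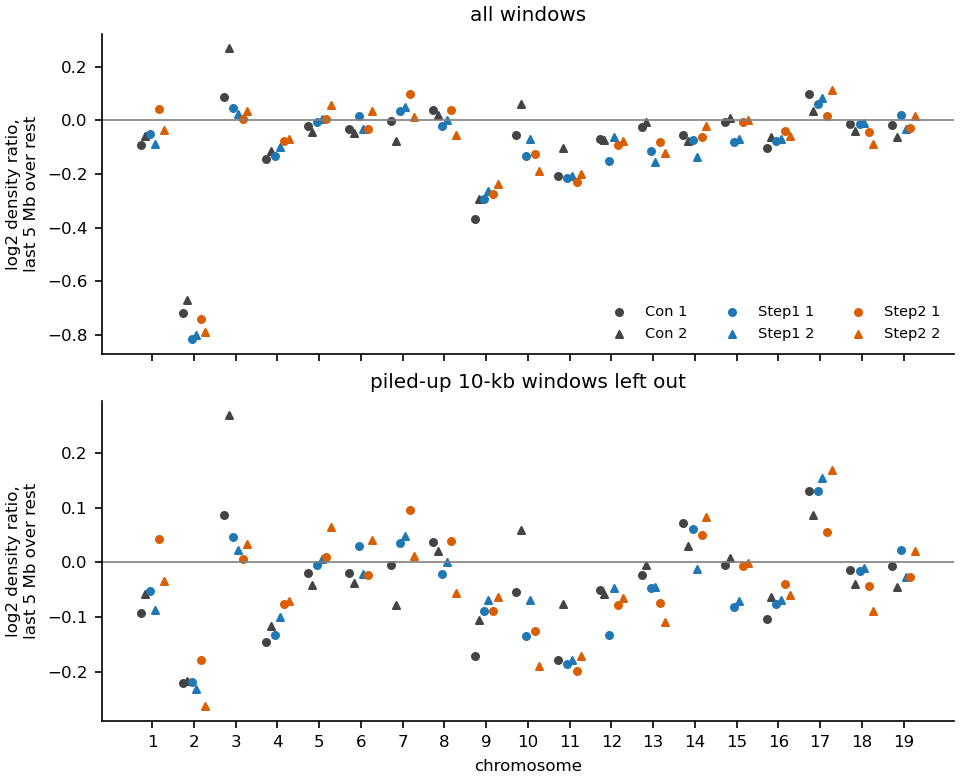
The log2 ratio of density in the last 5 Mb to density in the rest of the same chromosome, for each autosome and library, with all windows (above) and without the 26 piled-up windows (below; the axes differ in range). Chromosome 2 moves from a ratio of 0.592 to 0.858, and the second Con library stands apart on chromosome 3.

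Among the 914 windows, the lowest densities were those of windows with little single-copy sequence. The 3 lowest windows were chr13:120000001-120100000 at 36.0, chr2:177700001-177800000 at 57.9 and chr13:119900001-120000000 at 63.9, the mean over 6 libraries in each case. Their sampled sequence was 10.3%, 13.2% and 13.7% single-copy. Reads in the lowest of them were 11 and 8 (Con), 8 and 9 (Step1) and 6 and 1 (Step2). The 6 distal windows under 25% single-copy had a median density of 71.6, those of 50% to 75% a median of 328, and the 652 of at least 90% a median of 390. Other windows of the last class had a median of 407. Across the 914 windows density and single-copy share had a Pearson r of 0.47 and a Spearman rho of 0.13; windows share libraries and depth, so these describe the set and carry no p. Among the 821 windows at least 80% single-copy, density fell with GC (Pearson r −0.37, Spearman rho −0.48).

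A run of 5 adjacent windows on chromosome 12 was low without being repetitive. From chr12:116100001 to 116600000 the mean densities were 186, 198, 212, 177 and 175, while their sequence was 82.7% to 96.7% single-copy. The next windows on either side stood at 340 and 341. Of 21302 autosomal windows at least 80% single-copy, these 5 were the only ones under 240, and the next lowest stood at 254. The run was picked after its values were seen, so it is described with no test.

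The edges that best split the reads of all 6 libraries into a low inside and a higher outside were chr12:116101001-116613000, 512 kb long. Fitted alone, 5 libraries gave segments of 509 to 585 kb over this stretch. The second Con library gave another, chr12:116607001-117056000, which starts where the stretch ends. That segment covers the 300 kb beside the stretch where this library was at its highest, so it does not place a low stretch elsewhere. Inside the shared edges the density was 204 and 174 (Con), 192 and 181 (Step1) and 166 and 214 (Step2). In the 300 kb on the side of the chromosome end it was 389, 449, 371, 395, 379 and 303 in the same order. In the 100 kb on the other side it was 304, 371, 320, 247, 302 and 480. As a share of the density on both sides, the inside stood at 55.5% and 40.6% (Con), 53.5% and 50.6% (Step1) and 46.1% and 61.5% (Step2). The inside was thus at 40.6% to 61.5% of its surroundings, and the groups overlapped. The edges were fitted to the same libraries to split low from high best, which favours such a contrast. With 1 read per position and strand the shares ran from 43.2% to 57.3%, and over reads of mapping quality 30 or more from 40.9% to 59.1%. Within the first sequencing run they ran from 35.1% to 62.4%, and within the second from 43.0% to 70.6%.

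The stretch covers 66.0% of Vipr2, a receptor for vasoactive intestinal peptide, all of Wdr60 (a dynein subunit of cilia), Esyt2 (a tether between endoplasmic reticulum and plasma membrane) and Ncapg2 (a condensin II subunit), and the first 16.1% of Ptprn2, a protein of dense-core vesicles. As background, the Camk2a-tTA driver transgene used in many forebrain models has been mapped to this part of chromosome 12 with a deletion at its insertion. The labels do not name the driver allele, and its part in the low density was not tested.

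**Figure D3:**
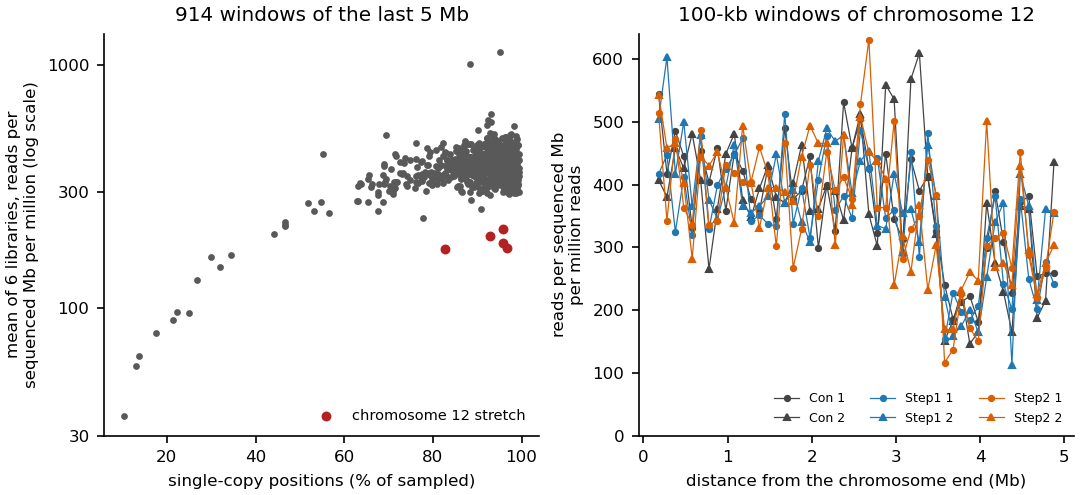
Left: mean density (log scale) of the 914 windows against the share of sampled sequence that is single-copy; the 5 windows of the chromosome 12 stretch, in red, lie at 175 to 212 although 82.7% to 96.7% single-copy. Right: density of the 100-kb windows of chromosome 12 by distance from its end, 1 line per library; all 6 dip together between 3.5 and 4 Mb.

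At the other extreme, the 2 highest windows held most of their reads near 1 site, summed over libraries. The highest was chr8:128000001-128100000 at 1130, with 228, 335, 203, 242, 177 and 122 reads (Con 1, Con 2, Step1 1, Step1 2, Step2 1, Step2 2). Reads within 100 bases of the chromosome 8 site made up 59.6%, 71.0%, 47.3%, 70.2%, 67.2% and 51.6% of these. The remaining reads of the window gave 41.7, 44.4, 46.9, 37.1, 39.8 and 41.6 CPM (reads scaled to library size), with no group apart.

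Most of the chromosome 8 reads began at chr8:128089257, with 333 reads over all libraries, and at 128089258, with 303. Their median mapping quality was 24 and 23 and their median length 21 and 20 bases, against library medians of 47 to 49 bases. The chromosome 9 site held 95 reads at its main position, with a median quality of 23 and a median length of 20. The 12 shared letters, GAATTCTCGGGT, occurred 3 times in the last 5 Mb on both strands together, where 934 reads had them in the first 30 reference bases, and 37 times elsewhere, with 30 such reads. The letters were taken from the chromosome 8 and 9 sites, which were picked for their reads. The gap between 934 and 30 reads thus largely follows from that choice. As background, these letters are also part of the standard Illumina small RNA 3′ adaptor. The labels name an RA3 adaptor sequence, and its part in these reads was not tested.

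The third-highest window, chr15:102400001-102500000, stood at 630 and holds Sp1 (a transcription factor binding GC boxes), Pcbp2 (a poly(C)-binding protein), Amhr2 (the receptor of anti-Müllerian hormone) and Prr13. It had 141 and 195 reads (Con), 127 and 124 (Step1) and 74 and 77 (Step2). None of its positions was among the 20 distal positions with the most reads, the lowest of which held 32 over the 6 libraries. Reads within 100 bases of a site were not counted for this window, so a cluster over several positions was not looked for. Of 331612 positions and strands with a distal read, 86.3% held 1 read and 8 held at least 50.

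Of the 921 distal windows that passed the minimum of 10 reads in 2 libraries, 1 changed between groups, and it holds the Cth site. Called means a Benjamini-Hochberg adjusted p under 0.05 in limma voom, over all 25381 windows tested. Step1 minus Con called 0 distal windows (0.0158% of all windows tested were called), Step2 minus Con called 1 (0.0906%) and Step2 minus Step1 called 0 (0.0433%). At an unadjusted p under 0.05 the same fit in limma had 78, 87 and 38 distal windows, against 7.27%, 8.25% and 4.29% of all windows; as shares of the distal windows these were 8.47%, 9.45% and 4.13%. The median log2 fold change of the distal windows was 0.0019, 0.0089 and 0.0085, and over all windows 0.0093, 0.0075 and −0.0042. Step1 and Step2 are each set against the same 2 Con libraries.

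Reads in the window of Cth, chr3:157900001-158000000, numbered 177 and 645 (Con), 165 and 127 (Step1) and 73 and 56 (Step2). Con was high, most of all its second library, and Step2 was low, with no overlap between them. In Step2 the log2 fold change against Con was −1.78 ± 0.26 (SE, adjusted p = 3.02e-06 in limma), and in Step1 it was −1.16 (adjusted p = 0.051). The window also holds Ankrd13c, which encodes a protein of the endoplasmic reticulum.

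The difference lay in reads near the Cth start. Within 100 bases of the site the libraries held 107, 548, 89, 64, 22 and 13 reads (Con, Step1, Step2), which is 48.6, 251, 39.02, 33.0, 15.1 and 9.17 CPM. The rest of the window held 31.8, 44.4, 33.3, 32.4, 35.0 and 30.3 CPM, and there the groups overlapped. The median mapping quality of these reads was 42. With 1 read per position and strand the log2 fold change of the window was −0.31 (adjusted p = 0.69), without the second Con library −0.84 (adjusted p = 0.11) and without the second Step2 library −1.61 (adjusted p = 0.054), all in limma, so the call rests on repeated positions and on these libraries. Without the first Con library, the one with fewer Cth reads, the log2 fold change of the window in Step1 against Con was −2.10. Calls against Con then rose over all windows tested, not only at the chromosome ends. That fit rests on 1 Con library, so its calls are not counted here. The window itself was called in Step1 too under several alternatives, and its log2 fold change there was −0.22 without the second Con library.

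**Figure D4:**
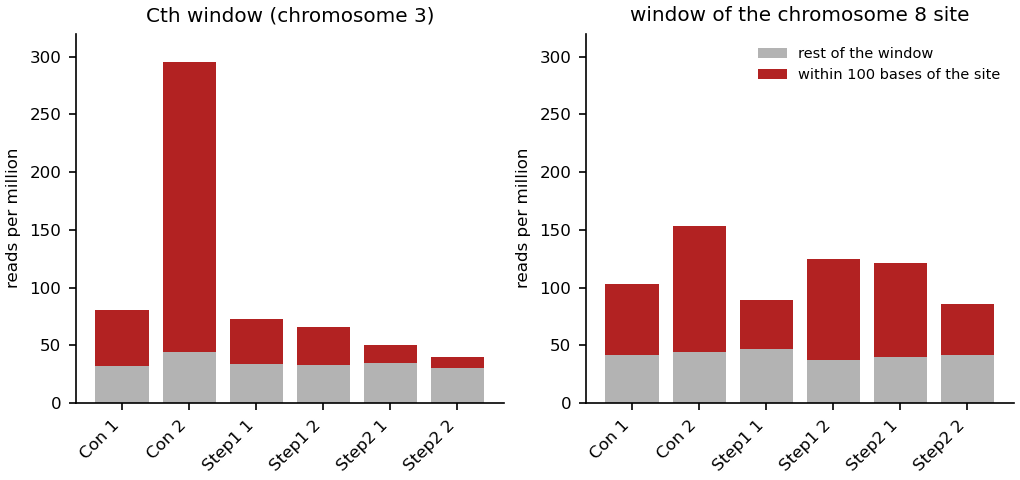
CPM in the Cth window of chromosome 3 and in the window of the chromosome 8 site, by library; red is the part within 100 bases of the site and grey the rest of the window. The grey part is 30.3 to 46.9 in every library of both windows, and the second Con library stands out at Cth.

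The other distal windows with the smallest p in each direction did not pass the test. In Step1 against Con the 3 highest were chr4:156000001-156100000 (log2 fold change 0.76), which holds Tnfrsf4 and Tnfrsf18 (receptors of the tumour necrosis factor family), chr13:118500001-118600000 (0.72) and chr18:86700001-86800000 (0.61), which holds Cbln2, a synapse organiser. The next lowest after the Cth window were chr12:116800001-116900000 in Ptprn2 (−0.72) and chr11:121200001-121300000 with Foxk2, a forkhead factor (−0.67). In Step2 against Con windows with small p on the high side were chr7:142400001-142500000 (0.72) with the troponin genes Tnni2 and Tnnt3 and chr9:122400001-122500000 (0.72). In Step2 against Step1, chr15:101300001-101400000 with the keratin gene Krt80 stood at 0.72, chr8:128100001-128200000 at 0.69 and chr7:144000001-144100000 in Shank2 at 0.59. On the low side, chr1:195000001-195100000 with the complement regulator Cd46 and chr19:60900001-61000000 with the receptor kinase Grk5 each stood at −0.72.

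Taken as blocks of 5 Mb, the chromosome ends gave 1 call. Of 19 distal blocks, Step1 minus Con called 0 (1.14% of the 525 blocks tested were called), Step2 minus Con called 1 (1.9%) and Step2 minus Step1 called 0 (0.571%), by limma voom. At an unadjusted p under 0.05, limma had 5, 7 and 3 of the 19 in the 3 comparisons. As shares of the distal blocks these were 26.3%, 36.8% and 15.8%, against 11.6%, 16.2% and 7.43% of all blocks. For Step2 minus Con these blocks went both ways, higher on chromosomes 1, 5, 7 and 9 and lower on chromosomes 3, 10 and 13. The shares rest on 19 blocks and 2 libraries a group, and their gap from all blocks was not tested. The called block was the end of chromosome 10, chr10:125694994-130694993.

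That block held 4150 and 4438 reads (Con), 4059 and 3613 (Step1) and 2634 and 2420 (Step2). In CPM the counts were 1883, 2033, 1780, 1861, 1806 and 1707, so both Con libraries were above both Step2 libraries by a small margin. The log2 fold change of Step2 against Con was −0.16 ± 0.036 (SE, adjusted p = 0.0079 in limma), and that of Step1 against Con was −0.10 (adjusted p = 0.13). Of its 49 tested windows 34 were lower in Step2, with a median log2 fold change of −0.14, and the 6 with p under 0.05 in limma were all lower. These windows hold the same reads as the block and were looked at after its call, so they describe the call and add no support to it. The call was lost with mapping quality of at least 30, without the second Con library (−0.10, adjusted p = 0.30 in limma), without either Step2 library, within either sequencing run and in the fit of 2 groups alone. Among the other 18 blocks the log2 fold change of Step2 against Con ran from −0.17 on chromosome 3, which holds the Cth window, to 0.097 on chromosome 7.

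In the last 10 kb of assembled sequence the libraries of Step1 and Step2 were all above those of Con. This zone was chosen after its values were seen. It held 129 and 153 reads (Con), 194 and 157 (Step1) and 125 and 117 (Step2) over the 19 ends, a density of 308 and 369, 448 and 426, and 451 and 435. The log2 difference from Con was 0.37 for Step1 and 0.39 for Step2, each with an exact permutation p of 0.33, the smallest possible, and both comparisons use the same Con libraries. Step1 was higher than Con at 14 of 19 ends and Step2 at 13.

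Further in the gap was smaller. From 10 to 20 kb the densities were 277, 232, 286, 290, 303 and 271, so Step1 lay above Con while Step2 overlapped it, and the log2 differences were 0.19 and 0.18. With 1 read per position and strand, 10 to 20 kb gave 255.3 and 262 (Con), 295 and 296 (Step1) and 314 and 280 (Step2), all above Con, and both groups lay above Con with mapping quality of at least 30 as well. Over the whole last 100 kb, 1 read per position and strand put both groups above Con (log2 differences 0.12 and 0.11), and all reads did not separate them (0.069 and 0.049). From 20 to 50 kb both overlapped Con (log2 differences 0.0048 and 0.078). From 50 to 100 kb Step1 overlapped Con and Step2 lay just below it (0.028 and −0.058). Within the first sequencing run the last 10 kb gave 0.16 and 0.19, and within the second 0.55 and 0.58; with 1 read per position and strand it gave 0.45 and 0.37. Leaving out 1 library at a time, the values ran from 0.24 to 0.50 for Step1 and from 0.26 to 0.52 for Step2. The smallest library held 117 reads there, so counting error alone is 9.25% of its value.

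**Figure D5:**
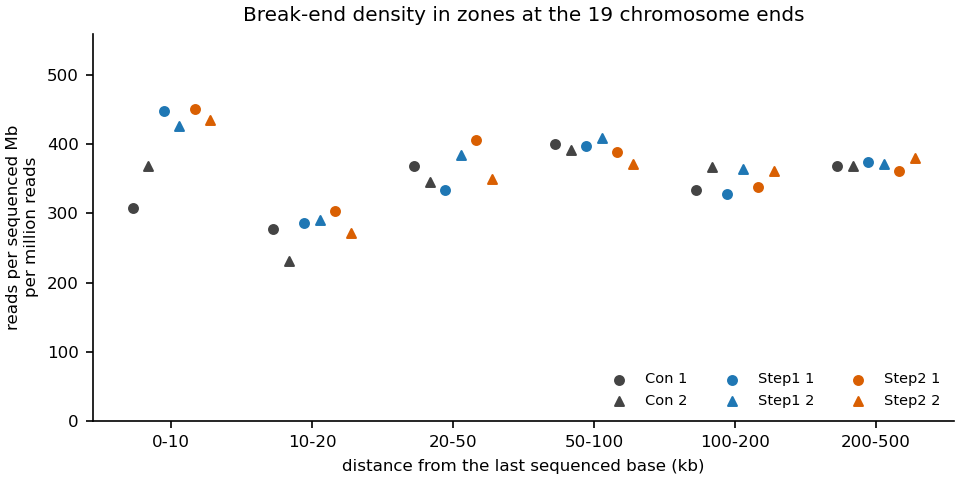
Reads per sequenced Mb, scaled as CPM, in zones counted back from the last sequenced base, summed over the 19 chromosome ends, 1 point per library. In the last 10 kb the Con libraries lie at 308 and 369 and the other 4 between 426 and 451; from 10 to 20 kb, with all reads, Step2 overlaps Con and Step1 lies just above it.

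No gene body at the chromosome ends was called with all 6 libraries. Of 1124 protein-coding genes that overlap the last 5 Mb, 660 passed the count minimum. On simulated counts over 13244 genes, for Step2 minus Con, the same fit recovered 13.4% of genes changed 1.5-fold, 44.8% of those changed 2-fold and 86.4% of those changed 4-fold, so smaller changes could be missed. The simulation gave every gene the same assumed spread between libraries, which was not estimated from these data. limma voom called 0 of the 660 in each of the 3 comparisons, while 17, 13 and 6 of 13811 genes tested were called (0.123%, 0.0941% and 0.0434%). At an unadjusted p under 0.05 the limma fit had 48, 54 and 13 of the 660, against 7.08%, 7.77% and 3.42% of all genes. The median log2 fold change of the distal genes was −0.030, −0.032 and −0.017, and that of all genes −0.039, −0.040 and −0.0019. Some distal genes were called without the first Con library, a fit that rests on 1 Con library, so they are not counted here. In that fit the log2 fold change of Ptprn2 was −0.31 in Step1 and −0.44 in Step2 against Con.

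Genes over 300 kb, many of them neuronal adhesion genes, were the group with the most reads per gene. All 28 were tested and 0 were called by limma. Of these, 6 had p under 0.05 in Step1 against Con and 4 in Step2 against Con, and the median log2 fold changes were −0.11 and −0.058. Lower values were not particular to the chromosome ends. Density in the 513 other autosomal genes over 300 kb was 410 and 416 (Con), 393 and 393 (Step1) and 386 and 390 (Step2). In the 28 distal genes it was 391 and 404, 374 and 375, and 381 and 372. The 72 genes of 100 to 300 kb had medians of −0.063 and −0.044, and the 560 tested genes under 100 kb −0.0066 and −0.028. Of 20 zinc finger genes 12 were tested and of 70 olfactory receptor genes 11, again with 0 called by limma and 0 to 2 with p under 0.05 in each comparison.

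Among the long neural genes, Ptprn2 held 632 and 728 reads (Con), 604 and 536 (Step1) and 395 and 316 (Step2). Scaled to depth and length it gave 36.2, 42.1, 33.5, 34.9, 34.2 and 28.2 CPM per 100 kb, with the Con libraries highest. Its log2 fold changes were −0.20 ± 0.075 and −0.33 ± 0.090 (SE, adjusted p = 0.56 and 0.23 in limma). Cdh4, a cadherin, stood at −0.10 and −0.19, and the postsynaptic scaffold gene Shank2 at 0.014 and −0.031, the sign of which turned under several alternatives.

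The distal genes with the smallest p were of several kinds, and none passed the adjusted test in limma. P4hb, which encodes protein disulfide isomerase, held 33 and 37 reads (Con), 12 and 12 (Step1) and 8 and 6 (Step2) (log2 fold change −1.45 in Step1, adjusted p = 0.21 in limma). Atp5b, the beta subunit of mitochondrial ATP synthase, held 24 and 29, 11 and 8, and 5 and 5. Both were picked for their small p, so the gap between Con and the other groups is a description. Erg, an ETS factor of endothelial cells, held 165 and 144, 216 and 187, and 132 and 147 reads, and in CPM Step1 and Step2 were above Con (log2 fold change 0.44 and 0.46).

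Other genes named by the same rule were Pnlip (pancreatic lipase) at 1.21 and Ints11 (the Integrator endonuclease) at 1.39 on the high side of Step1 against Con, and the synaptic scaffold gene Lrrc7 at −0.30 on the low side. For Step2 against Con they were Card14 at 1.33, Fam186a at 1.04 and the dynein gene Dnah17 at 0.77, and the actin-binding gene Ablim1 at −0.45. For Step2 against Step1 they were Olfr796 at 1.56, Eno4 at 1.30 and Slc22a18 at 1.24 on the high side, and Tespa1 at −1.02, Emb at −0.76 and the splicing gene Prpf6 at −0.71 on the low side.

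The genes nearest to the chromosome ends gave no call either. There are 19, and 13 were tested. Their distances run to the end of the chromosome and include the terminal gap of 100000 bases (150000 on chromosome 6). The largest of them, Fgf14 on chromosome 14, encodes a factor that binds sodium channels; it ends 225 kb from the end and held 581 and 694 reads (Con), 593 and 484 (Step1) and 380 and 407 (Step2). Bicd1, a dynein adaptor 173 kb from the end of chromosome 6, held 158 and 146, 140 and 128, and 67 and 90. Wls, which carries Wnt proteins to the surface, lies 101 kb from the end of chromosome 3 and held 101 and 127, 98 and 98, and 60 and 63. Cr2, a complement receptor 295 kb from the end of chromosome 1, held 24 and 27, 32 and 41, and 42 and 17. Gm21836 and Gm21060 held no read in any library.

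The last window of each chromosome with at least 50 kb of sequence gave a median density of 384, from 166 to 514. The 3 highest were those of chromosome 2 (514), chromosome 12 (488, in Tmem196) and chromosome 3 (474, at Wls). The 3 lowest were those of chromosome 13 (166, 34.4% single-copy), chromosome 1 (247, 56.7%) and chromosome 8 (274, 65.4%). The median over the 19 windows was 390 and 400 (Con), 386 and 355 (Step1) and 369 and 339 (Step2).

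The distal windows varied among themselves more in the second Con library than in the others. In the 811 distal windows at least 80% single-copy and with at least 90 kb of sequence, the coefficient of variation of density was 20.1% and 33.0% (Con), 17.2% and 19.1% (Step1) and 21.6% and 20.8% (Step2). Counting error alone would give 10.6% to 13.4%. With 1 read per position and strand the values were 15.9%, 17.4%, 15.5%, 15.9%, 18.1% and 17.7%, so the second Con library no longer stood apart. Its distal reads numbered 1.37 per position, against 1.13 to 1.24 in the other libraries, and 1.42 against 1.19 to 1.29 over the other windows.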

How the data were processed

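Each deposited file lists 1 aligned read per line with its interval, strand and a score, the aligner's mapping quality. Alignment to mm10 used Bowtie2, with SAMtools and bedtools afterwards, per the submitters' processing notes (versions not given in the sources used here). The deposited reads had been deduplicated by molecular identifier, per the labels, so several reads at 1 position are separate identifiers; file names also mark them as trimmed and filtered at a quality of 10. Read names show 2 sequencing runs in every library.

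Counts are of 5′ read ends in windows, 5-Mb blocks counted back from each end, and GENCODE M21 protein-coding gene bodies. Library size was the reads on chromosomes 1 to 19 and X outside piled-up windows, 1417749 to 2280767. For features with at least 10 reads in 2 libraries, limma 3.58.1 (voom weights, a mean for each group, two-sided tests) was run in R 4.3.3; ratios were computed in Python 3.11.15 with numpy 2.4.6 and pandas 2.3.3. Single-copy sequence was sampled every 100 bases with 48-base words. Sequences come from the GRCm38.p6 assembly, which shares mm10 coordinates. The fit was tested on simulated counts: for Step2 minus Con over 25362 windows, 62.7% of windows changed 2-fold and 100% of those changed 4-fold were recovered, and 10.4% at 1.5-fold. Every window was given the same assumed spread between libraries, which was not estimated from these data.

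The windows, gene groups and tests were chosen with earlier results of these data known. Named windows are the 3 highest and 3 lowest by density, the 3 highest and 3 lowest last windows, and per comparison and direction up to 5 called, or else the 3 with the smallest p. Named genes are the one nearest each end, the longest lying wholly inside, a list of long neural genes, and called or smallest-p genes by the same rule. Intervals were not computed for densities, and SDs and SEs cover 2 libraries a group. Markers of other cell types were counted near gene starts at 0.685 to 14.1 CPM a list and carry no identity. Some items that the naming rule picks are not reported here.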

Additional observations from a re-analysis of the deposited data

How the results depend on the processing

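The distal to other density stayed below 0 in all 6 libraries under every alternative run, with means of −0.12 to −0.019; without 1 library it ran from −0.094 to −0.087, where 5 libraries cannot give an exact sign-flip permutation p below 0.0625. Step2 minus Con turned sign within sequencing run 2 (0.0014), with the last 10 Mb (0.013) and with the median window density (0.0088), and ran from −0.017 to 0.0029 without 1 library; Step2 minus Step1 turned to −0.00067 with the GC curve and piled-up windows left out, an alternative chosen after seeing the data, as were the values per single-copy base. The cause of these changes was not tested.

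Called distal windows in Step1 minus Con numbered 1, the Cth window, with piled-up windows left out or median of ratios. The same held with at least 20 reads in every library, limma-trend and the replicate block. In Step2 minus Con they numbered 0 with 1 read per position and strand. Called distal blocks in Step1 minus Con numbered 1 with piled-up windows left out, where 4 of 525 blocks were called. In Step2 minus Con they numbered 3 with 1 read per position and strand, where 25 of 525 blocks were called. They numbered 2 with piled-up windows left out or limma-trend, where 6 and 14 of 525 blocks were called. With mapping quality of at least 30, within either run or in the 2-group fit they numbered 0. Called distal genes ran from 0 to 8 and from 0 to 5 without 1 library, both highest without the first Con library, as were the 10 windows. Shank2 turned to −0.10 within run 2 in Step1, and ran from −0.065 to 0.091 without 1 library; in Step2 it turned to 0.059, 0.020 and 0.016 with 1 read per position and strand, within run 2 and with median of ratios, and ran from −0.11 to 0.046. Deviations of same-numbered libraries had correlations of 0.0099 to 0.011 over 25381 windows. Counting error is large in single windows, so this cannot tell whether replicate numbers mark shared material. The replicate block added the 1 call above and changed no other distal count. Over all windows tested, limma called 15, 38 and 15 in the 3 comparisons with this block, against 4, 23 and 11 without it.

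Depth limits single windows, whose median was 73 reads a library. Shares of reads say where ends lay and not how many a cell had.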
